A study of Homo sapiens with 8 samples.

Results

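The Kruppel-like factors described here are KLF2, KLF3, KLF4, KLF5, KLF6, KLF7, KLF9, KLF10, KLF11 and KLF13, 10 members of the family without KLF1, its erythroid founder. They were represented by every probe set that the platform annotation pairs with that 1 symbol and no other, 32 probe sets of the 54675 on the array. At the level of genes they were 10 of 19775 genes tested. RNA came from K562, an established line from a human chronic myeloid leukaemia in blast crisis, carrying a stable p42-C/EBPa-ER fusion. The p42 form of C/EBPa is the full-length granulocyte transcription factor, and its fusion to the oestrogen receptor (ER) is held to move into the nucleus when estradiol is added. One group of 4 arrays came from such cells after 1 uM beta-estradiol for 6 h, and the other 4 arrays from such cells given ethanol vehicle for 6 h. Both groups carried the fusion, and grew in RPMI without phenol red, with 10% serum stripped on charcoal. Cells lacking the fusion are in neither group, so a response to estradiol alone and a response to the fusion cannot be told apart.

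Kruppel-like factors share zinc fingers near the C terminus that bind GC-rich and CACCC-type sites, and differ in the N-terminal part that recruits cofactors. One branch (KLF1, KLF2, KLF4, KLF5, KLF6 and KLF7) mostly activates genes through acetyltransferases such as EP300, another (KLF3, with KLF8 and KLF12) represses through CTBP proteins, and a further branch (KLF9, KLF10, KLF11 and KLF13, with KLF14 and KLF16) recruits SIN3A. In blood, KLF1 runs the red cell programme, KLF2 holds T cells and monocytes in a resting state, and KLF4 and KLF5 take part in monocyte and granulocyte differentiation.

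Of the 10 factors, 5 were higher and 1 was lower with estradiol. KLF6 and KLF2 rose most, 2.37-fold and 2.33-fold, followed by KLF5 (1.64-fold), KLF3 (1.30-fold) and KLF10 (1.24-fold). KLF9 was 1.21-fold lower, and KLF4, KLF7, KLF11 and KLF13 did not pass the test (limma on log2 values, Benjamini-Hochberg adjusted p below 0.05 over all 19775 genes). Over all genes 17.9% were called, 8.29% higher and 9.6% lower. At an unadjusted p below 0.05, 5 of the 10 factors were higher and 2 lower. Shares of all genes or probe sets at that unadjusted threshold are not given here, so counts at it have no background beside them. A change of at least 2-fold was reached by 2 of the 10 factors and by 0.93% of all genes, and one of at least 1.5-fold by 3 of the 10 and by 2.91% of all genes. The groups did not overlap for 6 of the 10 factors, against 24.1% of all genes. The median difference of the 10 factors, each read from its brightest probe set, was 0.23 on the log2 scale, and that of all genes was -0.03. Over all 32 probe sets of the factors the median was -0.00, against -0.02 over all probe sets. These factors were chosen with earlier results of these data known, so the counts describe them and are not a test of the family. In RNA from whole cultures, fewer cells that express a gene and less RNA per cell cannot be told apart.

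**Figure D1:**
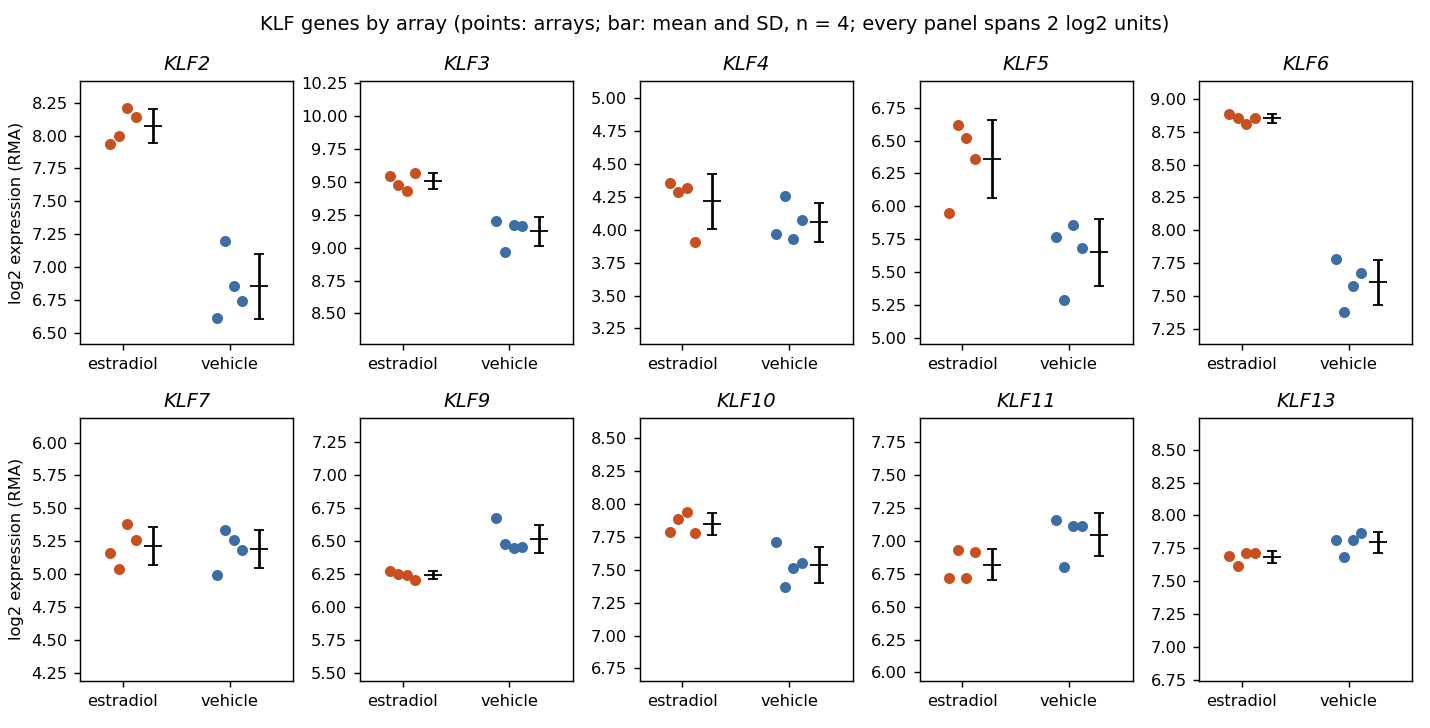
Log2 expression of the 10 KLF genes on each array, estradiol left and vehicle right, with the mean and SD of 4 arrays. KLF2, KLF3, KLF5, KLF6 and KLF10 lie higher on every estradiol array than on any vehicle array, KLF9 lies lower on every one, and the other 4 genes overlap between the groups.

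Array medians ran from 4.97 to 5.08 on the log2 scale, lower quartiles from 3.67 to 3.74, and precision is limited by having 4 arrays a group. All 8 measured markers of K562 and its erythroid features lay above the median gene, and 4 of them (GATA1, LMO2, HBE1 and KEL) were called lower with estradiol. Their list mean was 10.86 to 10.88 with estradiol and 11.10 to 11.15 with vehicle. Of 6 monocyte and granulocyte markers 0 lay above the median gene, with list means of 4.08 to 4.15 with estradiol and 4.10 to 4.29 with vehicle, and 1 of them, the granulocyte elastase gene ELANE, was called lower (-0.23 ± 0.07). Of the 5 endothelial markers measured, 1 was above the median gene and 1, PECAM1, was called higher (0.56 ± 0.07), with list means of 4.88 to 4.97 with estradiol and 4.72 to 4.84 with vehicle. The T and B cell list (5 measured) and the fibroblast and epithelium list (6 measured) held 2 and 3 genes above the median gene and had list means of 5.39 to 5.56 and 6.68 to 6.77 with estradiol, against 5.50 to 5.63 and 6.88 to 7.02 with vehicle. The epithelial keratin gene KRT19 was called lower, at -1.04 ± 0.05. The part of any of these shifts in the KLF values was not tested. CEBPA and ESR1, the genes of the fusion partners, differed by -0.02 ± 0.07 and 0.04 ± 0.06 (SE, limma adjusted p = 0.883 and 0.699). Whether their probe sets read the fusion transcript was not tested, so these values do not give the level of the fusion. Vehicle replicate 2 held the lowest of the 4 vehicle values for 43.3% of all probe sets and for 6 of the 10 KLF genes (KLF3, KLF5, KLF6, KLF10, KLF11 and KLF13), and the highest for KLF2, KLF4 and KLF7. Without it 5 KLF genes were called higher and 2 lower. Estradiol replicate 1 held the lowest estradiol value for 40.2% of probe sets and for 3 KLF genes, KLF2, KLF5 and KLF11. Without it 5 KLF genes were called higher and 1 lower.

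Within the activating branch, KLF6 and KLF2 changed by like amounts, and which was larger turned on the arrays used. Without vehicle replicate 2 KLF6 differed by 1.17 and KLF2 by 1.33. KLF6 is a broadly expressed factor that is induced early by growth signals and injury and acts as a growth suppressor in several tumours. Its log2 levels were 8.89, 8.85, 8.81 and 8.86 on the 4 estradiol arrays, against 7.78, 7.38, 7.58 and 7.67 on the 4 vehicle arrays. The estradiol arrays lay close together and all of them above every vehicle array. The difference was 1.25 ± 0.08 (SE, limma adjusted p = 8.27e-06), with a 95% interval of 1.07 to 1.43, which placed KLF6 at rank 103 among the 19775 genes ordered by rise. In the fit over every probe set, 4 of its 5 probe sets were called higher, with differences of 1.12 to 1.39. The remaining probe set, 211610_at, had levels of 4.77 to 5.04 with estradiol and 4.81 to 5.02 with vehicle and a difference of -0.04 ± 0.07. The mean of all 5 gave 0.97.

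KLF2, which restrains proliferation and inflammatory genes in lymphocytes, monocytes and endothelium, also rose. Its log2 levels were 7.93, 7.999, 8.21 and 8.14 on the estradiol arrays and 6.62, 7.20, 6.85 and 6.74 on the vehicle arrays. All estradiol arrays were above all vehicle arrays, and vehicle replicate 2 was the highest of its group. The difference was 1.22 ± 0.12 (SE, limma adjusted p = 0.000129), with a 95% interval of 0.95 to 1.49 and rank 108 by rise. Its other probe set, 226646_at, read 4.99, 5.13, 5.46 and 5.24 with estradiol and 5.18, 5.30, 5.20 and 5.42 with vehicle. That probe set differed by -0.07 ± 0.10 (95% interval -0.29 to 0.16). Its groups overlapped, and its interval lay below that of the first probe set. The mean of both gave a KLF2 difference of 0.58 (adjusted p = 0.00206).

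The letters before the annotated starts of KLF2 and KLF6 are shown because these 2 genes rose most. Each window is the 250 bases before the start, from RefSeq on GRCh38.p14, written 5′ to 3′ on the strand of the gene, at chr19:16324576-16324825 on the plus strand for KLF2 and at chr10:3785210-3785459 on the minus strand for KLF6. Capitals mark GGGCGG on either strand, the GC box bound by SP and Kruppel-like proteins.
KLF2: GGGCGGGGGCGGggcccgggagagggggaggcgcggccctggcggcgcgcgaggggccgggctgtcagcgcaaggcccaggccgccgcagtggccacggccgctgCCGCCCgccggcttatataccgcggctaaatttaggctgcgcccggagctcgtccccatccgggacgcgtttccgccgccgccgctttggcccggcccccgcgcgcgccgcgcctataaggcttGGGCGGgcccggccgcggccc
KLF6: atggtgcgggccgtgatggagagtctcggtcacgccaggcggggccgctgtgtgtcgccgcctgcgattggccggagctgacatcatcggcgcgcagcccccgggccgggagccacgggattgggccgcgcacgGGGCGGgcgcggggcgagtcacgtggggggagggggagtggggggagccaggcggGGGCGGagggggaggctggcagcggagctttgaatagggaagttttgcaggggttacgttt
The KLF2 window held 4 such boxes and the KLF6 window 2. Neither held TTGCNNAA, a C/EBP-type pattern, nor CACCC or GATAA, on either strand. Of 35116 promoter windows of this length, 42.6% held GGGCGG, 54.7% CACCC, 20.4% GATAA and 9.05% TTGCNNAA. The KLF2 and KLF6 windows had 80.0% and 72.4% G and C, against a median of 58.0% over all windows. Windows were found for 8 of the 10 factors, 13 windows in all, since KLF5, KLF7 and KLF11 have several starts. Of those 13, 8 held GGGCGG, 6 CACCC, 1 GATAA and 1 TTGCNNAA, the last in a KLF7 window. These are matches of letters and say nothing on binding.

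KLF5, an activator best known from gut and skin epithelium, rose on both of its probe sets. The brighter one read 5.95, 6.62, 6.52 and 6.36 with estradiol and 5.77, 5.29, 5.86 and 5.69 with vehicle. The groups stood apart by a small margin, with estradiol replicate 1 close to vehicle replicate 3. The difference was 0.71 ± 0.16 (SE, limma adjusted p = 0.0147), with a 95% interval of 0.34 to 1.08. The other probe set read 3.50, 4.05, 3.56 and 3.55 with estradiol and 2.91, 2.86, 2.95 and 3.07 with vehicle, a difference of 0.72 ± 0.12. With the replicate number as a block in the fit, KLF5 was not called over all genes (limma adjusted p = 0.0516). Over all probe sets the call of the brighter one was lost without estradiol replicate 2, 3 or 4 (adjusted p = 0.0547 to 0.0609). The vehicle values of the other lay below the lower quartiles of the arrays, as did its values on estradiol replicates 1, 3 and 4. Only on estradiol replicate 2 did it lie above. The deposited table carries no detection call for that probe set, and its distance from background is unknown.

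KLF4, a monocyte and epithelial factor known as one of the reprogramming factors, was not called. Its brighter probe set read 4.35, 4.28, 4.32 and 3.91 with estradiol and 3.97, 4.26, 3.93 and 4.08 with vehicle. The groups overlapped, and the difference of 0.16 ± 0.11 had a 95% interval of -0.09 to 0.41 (SE, limma adjusted p = 0.412). Without estradiol replicate 4, the lowest KLF4 value of its group, the difference was 0.26 (adjusted p = 0.0772). The other KLF4 probe set, 221841_s_at, differed by 0.20 ± 0.14 and was not called. KLF7, a factor studied mainly in neurons and fat cells, had the smallest difference of the 10 genes, 0.02 ± 0.09 with a 95% interval of -0.19 to 0.22. It read 5.16, 5.04, 5.38 and 5.26 with estradiol and 5.00, 5.33, 5.26 and 5.18 with vehicle. Over all 5 KLF7 probe sets the differences ran from -0.12 to 0.06 and 0 were called (limma over all probe sets, with 0 also at an unadjusted p below 0.05), while 10.4% of all probe sets on the array were called in either direction.

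**Figure D2:**
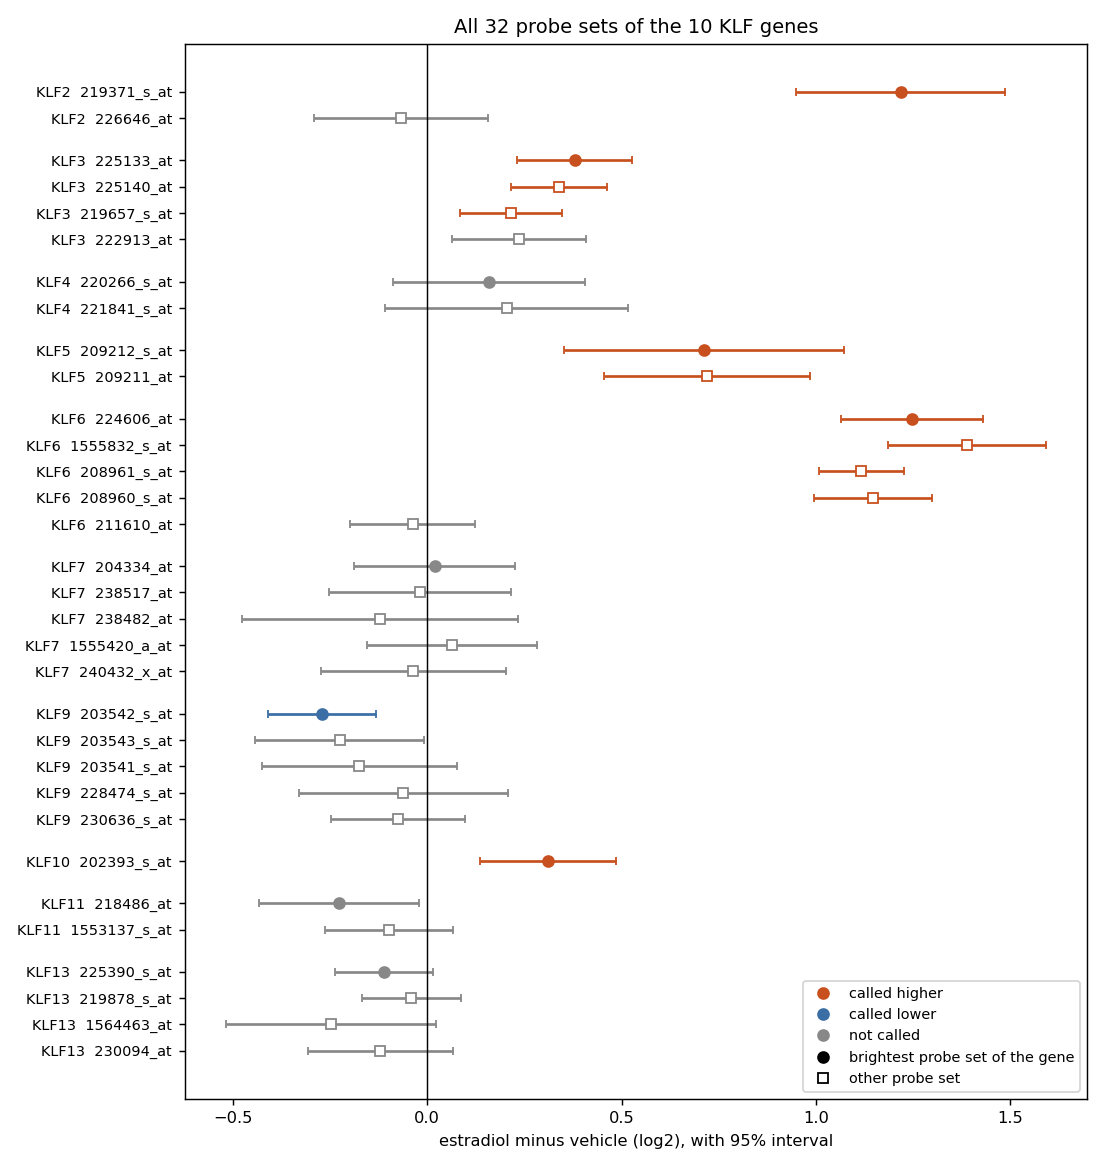
Difference between estradiol and vehicle (log2, horizontal axis) with its 95% interval for each of the 32 probe sets, grouped by gene; filled circles are the brightest probe set of a gene and colours mark the call over all probe sets. The 11 called higher belong to KLF2, KLF3, KLF5, KLF6 and KLF10, the 1 called lower to KLF9, and 1 probe set each of KLF2 (-0.07) and KLF6 (-0.04) lies near 0, apart from the called ones of the same gene.

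KLF3 stands for the CTBP-binding branch among the 10 genes, and in mouse red cell precursors its gene is activated by KLF1. It read 9.54, 9.47, 9.43 and 9.57 with estradiol and 9.20, 8.96, 9.17 and 9.16 with vehicle. Every estradiol array was above every vehicle array, while KLF1 moved the other way. The KLF3 difference was 0.38 ± 0.06 (SE, limma adjusted p = 0.00254), with a 95% interval of 0.24 to 0.52. Of its 4 probe sets 3 were called higher over all probe sets (0.22 to 0.38), and the fourth, 222913_at, differed by 0.24 ± 0.08 at adjusted p = 0.0962. Of these 3, the call of 219657_s_at (adjusted p = 0.0460) was lost under all 3 other scalings of the arrays (adjusted p = 0.0552 to 0.132). Leaving out any 1 array other than vehicle replicate 2 also ended it (adjusted p = 0.0833 to 0.126).

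In the SIN3A-binding branch KLF10 and KLF9 changed in opposite directions. KLF10, first described as a gene induced early by TGF-beta, was measured by 1 probe set at 7.78, 7.89, 7.94 and 7.78 with estradiol and 7.71, 7.37, 7.51 and 7.55 with vehicle. The groups did not overlap, with vehicle replicate 1 just below the lowest estradiol array. The difference was 0.31 ± 0.07 (SE, limma adjusted p = 0.0187), and leaving out any one of estradiol replicates 2 and 3 and vehicle replicate 3 ended the call (adjusted p = 0.0532 to 0.0565). Over all probe sets it was also lost without estradiol replicate 4 or vehicle replicate 2 or 4 (adjusted p = 0.0534 to 0.0740). With the replicate number as a block in the fit, KLF10 was not called over all genes (limma adjusted p = 0.0676).

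KLF9, a factor induced by thyroid and steroid hormones in other tissues, read 6.28, 6.25, 6.24 and 6.20 with estradiol and 6.67, 6.48, 6.45 and 6.46 with vehicle. All estradiol arrays lay below all vehicle arrays. The difference was -0.27 ± 0.06 (SE, limma adjusted p = 0.0104). Its other 4 probe sets differed by -0.23 to -0.06 and were not called over all probe sets, and the mean of all 5 gave -0.16 (adjusted p = 0.0442). Over all probe sets the call of the brightest one was lost with median centring (adjusted p = 0.0807) and without estradiol replicate 2, 3 or 4 (adjusted p = 0.0562 to 0.0730).

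KLF11, the other TGF-beta-inducible factor, read 6.71, 6.93, 6.72 and 6.91 with estradiol and 7.16, 6.80, 7.11 and 7.11 with vehicle. Vehicle replicate 2 lay among the estradiol values and the other vehicle arrays above them. The difference of -0.23 ± 0.09 was not called (SE, limma adjusted p = 0.132), and without vehicle replicate 2 it was -0.31 and called (adjusted p = 0.0149). The other KLF11 probe set, 1553137_s_at, differed by -0.10 ± 0.07 and was not called, and its groups overlapped. The mean of both gave -0.16 (limma adjusted p = 0.109). KLF13, an activator of the chemokine gene CCL5 in T cells, read 7.69, 7.62, 7.71 and 7.71 with estradiol and 7.82, 7.69, 7.81 and 7.87 with vehicle. The groups overlapped at vehicle replicate 2, and the difference was -0.11 ± 0.05 with a 95% interval of -0.23 to 0.00 (limma adjusted p = 0.192). The 4 probe sets of KLF13 differed by -0.25 to -0.04 with 0 called.

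Of all 32 probe sets 11 were called higher and 1 lower, while over the 54675 probe sets 5.32% were called higher and 5.05% lower. At an unadjusted p below 0.05 the numbers were 12 and 3, with no share of all probe sets at that threshold given here. The groups did not overlap for 13 of the 32, against 17.5% of all probe sets. KLF2, KLF6 and KLF9 each had a called probe set and at least 1 that differed by less than 0.1 in size, whereas the probe sets of KLF5 differed by 0.71 and 0.72.

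None of the other measured family members was called higher over all genes. The counts of this and the following lists stand beside 17.9% of all genes called, 8.29% higher and 9.6% lower. KLF1, the erythroid activator, read 9.37, 9.36, 9.38 and 9.31 with estradiol and 10.06, 10.06, 10.08 and 10.07 with vehicle, and differed by -0.71 ± 0.04 (SE, limma adjusted p = 2.57e-06). Of the 7 measured other KLF genes 2 fell and 0 rose over all genes (limma; 3 and 0 at an unadjusted p below 0.05). The second fall was KLF16, a SIN3A-branch member, at -0.45 ± 0.07 on 1 of its 2 probe sets. The list median was -0.22. Of 8 measured SP genes, the closest relatives of the family, 1 fell, SP6 (-0.28 ± 0.08, adjusted p = 0.0363), and the list median was -0.07. Over all probe sets, 1 of 2 for SP8 was called higher, 1 of 8 for KLF12 was called lower, and the 1 for SP6 was not called. Median centring ended the SP6 call, as did leaving out replicate 1 or 2 of estradiol, or 1 or 3 of vehicle (adjusted p up to 0.0994).

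Of 12 measured cofactors that Kruppel-like proteins bind, 2 rose and 2 (FHL3 and CTBP2) fell. CTBP2 differed by -0.18 (limma adjusted p = 0.0247). Over all probe sets 0 of the 6 for CTBP2 were called. The acetyltransferase genes EP300 (0.36 ± 0.05) and CREBBP (0.26 ± 0.06) rose, on 1 of 2 and 1 of 4 probe sets. Averaged over its 4 probe sets, CREBBP differed by 0.04 (adjusted p = 0.727). FHL3, a partner of KLF3, fell by 0.41 on the log2 scale (adjusted p = 0.000154). The median of this list was -0.02. Among 7 measured ubiquitin ligases that act on Kruppel-like proteins 0 were called (limma; 2 higher at an unadjusted p below 0.05), the smallest p being that of ITCH, a ligase for KLF10 (0.20 ± 0.07, adjusted p = 0.0768). ITCH was called higher under 6 of 17 alternatives (adjusted p = 0.0184 to 0.0415).

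Upstream of KLF2 and KLF4 lie the kinase MAPK7 and the MEF2 factors, which drive both genes in endothelium. Of 7 measured genes of that route 1 fell and 0 rose. The fall was MEF2C, at -0.47 ± 0.05 (SE, limma adjusted p = 0.000131), on all 3 of its probe sets. MEF2A was not called over all genes, read from its brightest probe set (0.17 ± 0.06, adjusted p = 0.0869). Over all probe sets, however, 2 of the 4 for MEF2A were called higher. In the TGF-beta list around KLF10 and KLF11, 2 of 8 genes rose and 3 (TGFBR2, SMAD2 and TGFB1) fell. Over all probe sets, 2 of 6 for SMAD2 and 0 of 2 for TGFB1 were called lower. TGIF1, a homeobox repressor of SMAD signalling, rose 3.40-fold (1.77 ± 0.06, adjusted p = 2.33e-07) and SMAD3, a signal transducer of the pathway, 1.76-fold (0.82 ± 0.05), while the receptor gene TGFBR2 fell by 0.52 on 1 of 2 probe sets (-0.28 for their mean).

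Of 7 measured KLF2 target genes 2 rose and 1 fell. THBD, the anticoagulant receptor thrombomodulin, rose 1.99-fold (0.99 ± 0.11, on 1 of 3 probe sets, 0.52 for their mean) and CDKN1A, a cyclin-dependent kinase inhibitor, rose 1.64-fold (0.72 ± 0.08). NOS3, the endothelial nitric oxide synthase, which KLF2 activates in endothelium, was lower by 1.48-fold (-0.56 ± 0.04, on 1 of 2 probe sets, -0.34 for their mean). The list median was 0.01. S1PR1, CCR7 and EDN1, named here for their levels, were not called and lay below the median gene, as did THBD. CDKN1A is also a target of KLF4 and KLF6, and of the 7 measured genes in that list it was the 1 that was called. Of 8 measured hormone receptor target genes, ZBTB16 rose 7.04-fold (2.82 ± 0.11) and FKBP5 1.25-fold (0.32 ± 0.04), both known glucocorticoid-induced genes. TSC22D3, another such gene, was not called (-0.10 ± 0.05, limma adjusted p = 0.250). NRIP1, an oestrogen receptor corepressor and also a target of that receptor, was lower by 0.43 ± 0.06. The median of the hormone list was -0.02. Other oestrogen receptor targets of the list, GREB1, PGR, TFF1 and CA12, were named after their values were seen. They were not called, with differences of -0.11, 0.16, 0.02 and -0.06. GREB1, PGR and TFF1 lay below the median gene.

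**Figure D3:**
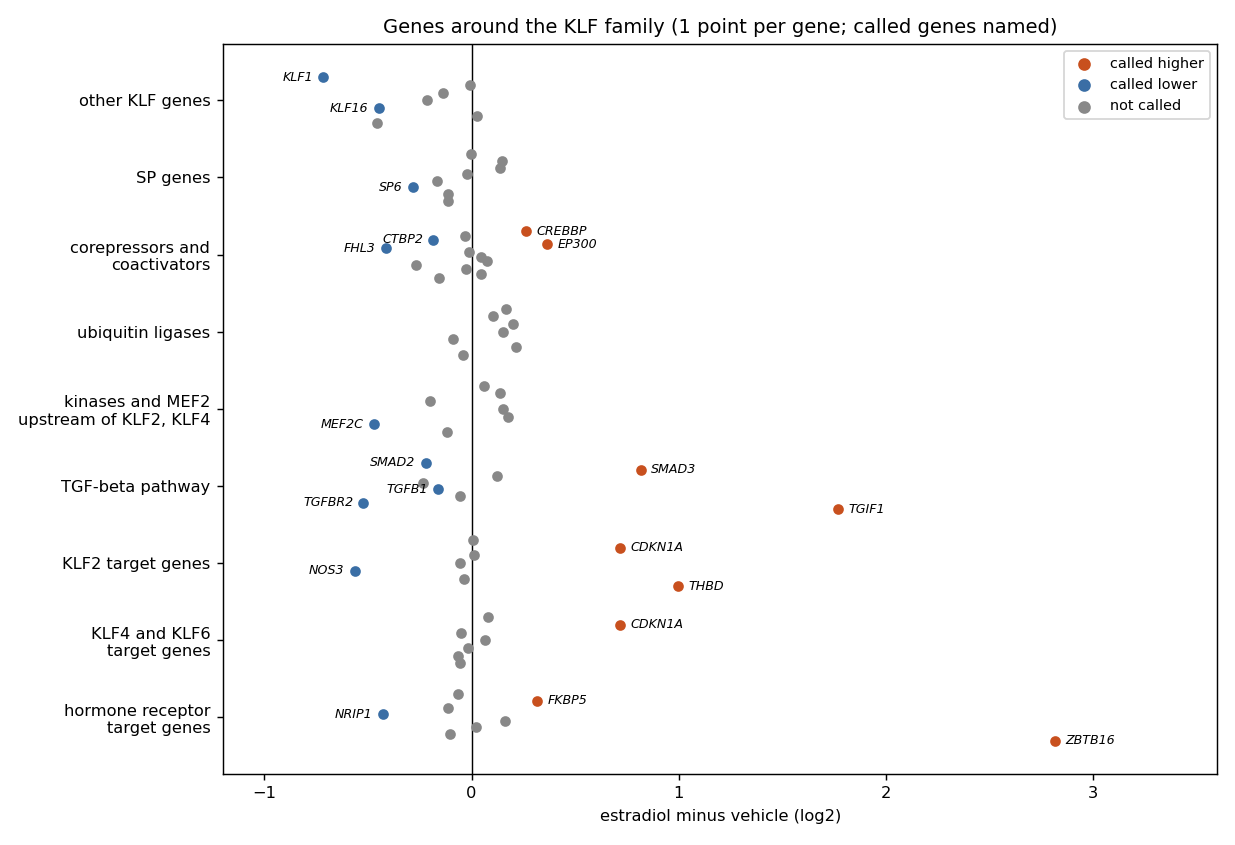
Difference between estradiol and vehicle (log2, horizontal axis) for each measured gene of 9 lists around the KLF family, one point per gene, with called genes named. Of the 9 lists, none has all its genes called, and the largest differences in the plot are those of ZBTB16 (2.82), TGIF1 (1.77) and THBD (0.99).

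The genes whose values over the 8 arrays lay nearest to KLF6, as the distance between log2 values set to the vehicle mean of each gene, were TNFAIP8, a regulator of cell death (1.25 ± 0.07, distance 0.125), CCPG1, a receptor for autophagy of the endoplasmic reticulum (1.30 ± 0.07, distance 0.161) and the noncoding LINC00623 (1.26 ± 0.08, distance 0.167). For KLF9, the 1 factor that fell, they were TARS3, a threonyl-tRNA synthetase (-0.27 ± 0.06, distance 0.0432), the noncoding APTR (-0.26 ± 0.05, distance 0.100) and PRXL2A, a peroxiredoxin-like protein (-0.26 ± 0.05, distance 0.102).

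KLF2, KLF3, KLF6 and KLF9 kept their calls over all genes in each of 17 alternatives at an adjusted p below 0.05, the lowest and highest differences being 0.58 and 1.33 for KLF2, 0.29 and 0.41 for KLF3, 0.97 and 1.31 for KLF6 and -0.29 and -0.16 for KLF9. KLF4 was called in 0 of 15 alternatives that included it and KLF7 in 0 of 16.

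**Figure D4:**
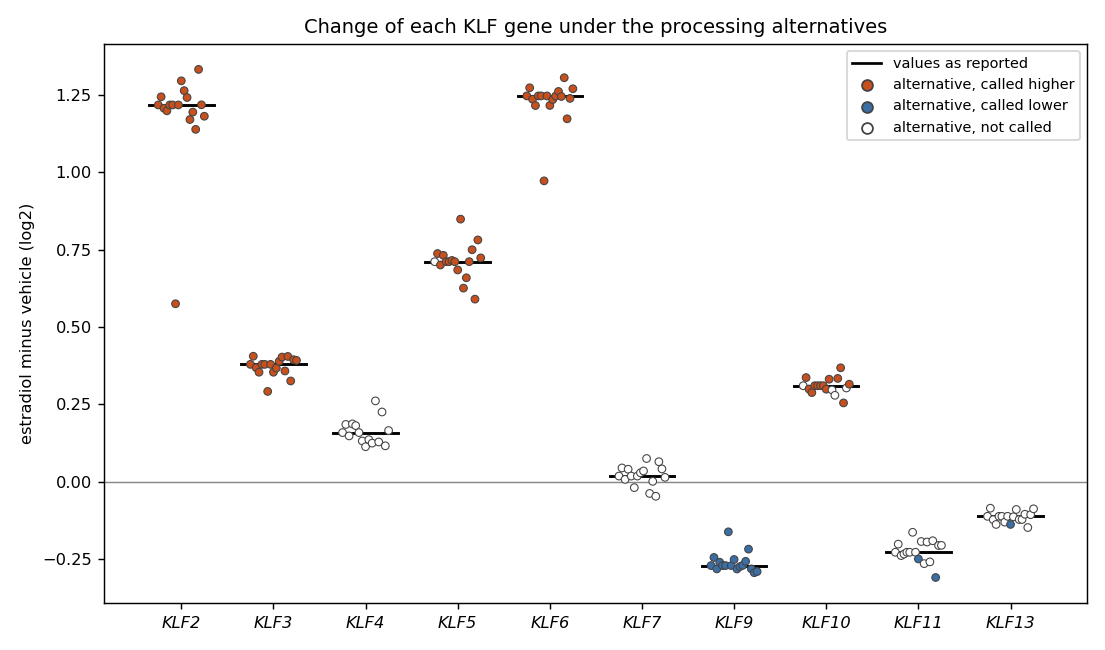
Difference between estradiol and vehicle (log2, vertical axis) for each KLF gene as reported (black line) and under each processing alternative (points, filled where called). The points of KLF2, KLF3, KLF6 and KLF9 are all filled, those of KLF5, KLF10, KLF11 and KLF13 are filled in 16, 13, 2 and 1 of 17 alternatives, none of KLF4 and KLF7 is filled, and the lowest KLF2 point, 0.58, is the mean of its 2 probe sets.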

How the data were processed

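RNA of 8 samples was measured on arrays, 4 with estradiol and 4 with vehicle, after amplification of 200 ng of total RNA per the labels' protocols. RMA is the tool that the submitters' processing notes name for the deposited log2 values. It corrects the background, equalizes the arrays and summarizes probe sets, which can understate changes of dim genes. Whether it did so here was not tested. No chip definition or genome build was found in the labels or headers. Groups and replicate numbers came from the titles, where each sample is named a biological replicate. The labels do not say that cultures were separate, so the p-values cover only spread among these arrays, which may be technical.

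Of 54675 probe sets 41097 had 1 symbol in the platform annotation, 1801 had several and 11777 had none listed. All 32 KLF probe sets matched RefSeq gene identifiers with 0 symbols changed. A gene was read from its brightest probe set (mean of the 8 arrays). Each gene, and separately each probe set, was tested with limma 3.58.1 in R 4.3.3 (lmFit and eBayes, no trend, no block, no filter), estradiol minus vehicle, two-sided, with Benjamini-Hochberg adjusted p-values over the whole table, called below 0.05. Errors of levels are SDs and those of differences moderated standard errors. Errors and adjusted p-values of a gene's brightest probe set come from the fit over all genes, unless "over all probe sets" is written. Those of its other probe sets, and counts of called probe sets, come from the fit over all probe sets.

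The KLF genes and the gene lists were chosen with earlier results of these data known. From each list the text names up to 3 called genes with the largest change, or the gene with the smallest p. List genes not found among the probe sets with 1 symbol were not analysed here. On simulated log2 values for 19775 genes, estradiol against vehicle, 10 of 50 genes changed by 0.25 were recovered, 32 of 50 at 0.5, 48 of 50 at 1 and 50 of 50 at 2. In that simulation 9 calls were false. Far fewer genes changed there than the 17.9% called in the data, so these shares need not carry over. Alternatives were a block for the replicate number, 3 rescalings, 2 filters on dim genes, the mean of a gene's probe sets, a trend with a robust fit, array weights, each array left out and an adjusted p below 0.01. Figures were drawn with matplotlib 3.10.9.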

Additional observations from a re-analysis of the deposited data

Results flagged for a closer look

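Of 64 groups of 4 arrays, 1 for each KLF probe set and treatment, 7 held an array far from the other 3 by Dixon's test. Chance flags about 1 in 20 such groups. Among estradiol arrays, KLF5 probe set 209211_at read 4.05 in estradiol replicate 2 against 3.50 to 3.56 in the other estradiol arrays, KLF4 probe set 220266_s_at 3.91 in estradiol replicate 4 against 4.28 to 4.35, and KLF7 probe set 240432_x_at 2.88 in estradiol replicate 3 against 3.06 to 3.08. Vehicle replicate 2 stood apart for KLF11 probe set 218486_at (6.80 against 7.11 to 7.16 in the other vehicle arrays), KLF3 probe set 225133_at (8.96 against 9.16 to 9.20) and KLF9 probe set 203541_s_at (5.82 against 5.30 to 5.31). Vehicle replicate 1 stood apart for KLF9 probe set 203542_s_at, at 6.67 against 6.45 to 6.48.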

How the results depend on the processing

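Of 167 values of the 10 KLF genes under alternatives 159 kept their direction where called and their side of the threshold, 5 lost and 3 gained a call, and 0 reversed; of 448 probe set values 27 lost and 2 gained a call, and of 424 values of other named genes 8 lost and 6 gained one. An adjusted p below 0.01 left 2179 called genes (1040 higher, 1139 lower) of 3538, 3 KLF genes higher and 0 lower, and 0 KLF probe sets lower. Array weights gave 3 KLF genes lower, KLF11 and KLF13 added to KLF9, and median centring 0 KLF probe sets lower; the cause was not tested. With each array left out, 4 to 5 KLF genes were called higher, 1 to 2 lower and 0 to 2 KLF probe sets lower. Filters on dim genes left 8 and 9 of the 10 KLF genes. Whether replicate numbers pair the samples was not settled. Same-numbered deviations correlated at -0.21 to 0.11, and 1 of 4 estradiol arrays correlated best with its own number. Shifts of whole arrays can set such correlations, so they cannot exclude pairing. With the replicate number as a block, 2598 genes, 3 KLF genes higher and 0 KLF probe sets lower were called, KLF5 (adjusted p = 0.0516), KLF10 (0.0676), SP6 (0.0835) and CREBBP (0.0519) losing theirs over all genes, and the KLF5 probe set 209212_s_at (0.0672), KLF10 (0.104), KLF9 (0.0537) and the KLF3 probe set 219657_s_at (0.113) over all probe sets. How far KLF4, KLF7 and the dim probe sets stood above background limits those values and is unknown.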

Other observations

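Noncoding genes next to KLF genes, chosen after their values were seen, were measured as well. KLF3-AS1, antisense to KLF3, read 4.98 to 5.29 with estradiol and 4.99 to 5.49 with vehicle, and differed by -0.07 ± 0.11 (SE, limma adjusted p = 0.748). Its other probe set differed by 0.10 ± 0.13. KLF9-DT, the divergent transcript of KLF9, read 3.42 to 3.77 with estradiol and 3.30 to 4.00 with vehicle, and differed by -0.12 ± 0.15 (SE, limma adjusted p = 0.693). Neither passed the test, and the groups overlapped for both.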
